A study of Homo sapiens with 24 samples.

Results

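Heat shock chaperones are the proteins that fold, hold and refold other proteins in the cytosol and in mitochondria. The genes described here are 10: HSPA8, HSPA4, HSPA9, HSP90AA1, HSP90AB1, HSPD1, HSPE1, HSPH1, DNAJB1 and STIP1. They were chosen by name, from the core cytosolic and mitochondrial chaperone systems, with earlier results of these data known. Each was read through a probe set annotated to it and to no other gene. HSPA8, the constitutive cytosolic HSP70, is given no level, because its 3 probe sets are also annotated to SNORD14C and SNORD14D, small nucleolar RNAs of its introns. The other 9 genes had 22 such probe sets between them, and the one with the highest mean over all arrays stood for the gene. These 9 are among 11963 genes with a probe set of their own and 6782 that passed the filter on low values, which all 9 passed.

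RNA came from LNCaP, an established human prostate cancer line, nucleofected (a form of electroporation) with 2.5 µg of plasmid for a scramble control or for 1 of 3 microRNAs, miR-130a, miR-203 and miR-205. The study asked which messenger RNAs each microRNA binds. Total RNA and RNA precipitated with AGO2 by the antibody 11A were each measured on 3 arrays per transfection, labelled as biological replicates, which gives 8 groups and 24 Affymetrix U133A 2.0 arrays with 2 µg of RNA each. All groups share 1 cell line and a nucleofection with plasmid, the scramble groups included, and a precipitate with a control antibody was not used here.

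An HSP70 protein binds short unfolded stretches of its clients in cycles of ATP hydrolysis. J domain proteins such as DNAJB1 start the cycle, and nucleotide exchange factors such as HSPA4 and HSPH1, both of the HSP110 family, end it. Clients can pass on to HSP90, and STIP1 (also called HOP) bridges the HSP70 and HSP90 machines. In mitochondria HSPA9 (mortalin) is the HSP70, and HSPD1 with its lid HSPE1 forms the folding chamber of the chaperonin. Many of these genes are switched on together by the heat shock factor HSF1, and in prostate cells HSP90 is known for keeping the androgen receptor able to bind its ligand. AGO2 is the Argonaute protein that carries a microRNA to the messenger RNAs it pairs with, mainly through the seed at bases 2 to 8 of the microRNA.

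A microRNA pairs mainly through its seed, so the mature sequences of miR-203 and miR-205 are shown, from RefSeq on GRCh38.p14, with the seed in capitals. That of miR-130a is not shown here. The miR-203 gene gives its mature strand from chr14:104117469-104117490 and the miR-205 gene from chr1:209432166-209432187, both on the plus strand. Their seeds differ.
hsa-miR-203a-3p: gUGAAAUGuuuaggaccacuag
hsa-miR-205-5p: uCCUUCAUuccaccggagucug

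Some of the genes held a promoter element of the heat shock response. The genes were chosen by name as heat shock chaperones, so its share among them is not independent of that choice. The windows from 250 bases before to 50 bases after each annotated start (RefSeq, GRCh38.p14) were searched on both strands for a 13-base heat shock element, GAANNTTCNNGAA or its reverse complement TTCNNGAANNTTC, counting overlapping matches. HSPA8, HSP90AA1, HSP90AB1 and HSPD1 held it, 4 of the 10 genes (40%), and the other 6 did not, against 166 of 27305 genes (0.608%) that did. By window it was 4 of 17 for these genes and 172 of 35116 (0.49%) for all genes. Each match among the measured genes is shown 5′ to 3′ on the gene's own strand with the element in capitals: HSP90AA1 at chr14:102087114-102087138 on the minus strand, HSP90AB1 at chr6:44247772-44247796 and chr6:44247825-44247849 on the plus strand, and HSPD1 at chr2:197500062-197500090 on the minus strand, where a pair of elements overlaps.
HSP90AA1: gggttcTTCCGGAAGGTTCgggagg
HSP90AB1 first: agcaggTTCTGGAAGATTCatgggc
HSP90AB1 second: agattgTTCTGGAAGCTTCtggatt
HSPD1: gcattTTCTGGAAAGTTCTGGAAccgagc
The HSPD1 match lies in the window of its inner start at chr2:197499840, and the window of its outer start at chr2:197500274 held none. HSP90AA1 and HSP90AB1 also have annotated starts whose windows held none. A match to these letters is a description, not a binding site.

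HSPD1 and HSPE1, whose proteins work as 1 machine, stand head to head on chromosome 2. Between the outer annotated start of HSPD1 and the start of HSPE1 lie 104 bases (chr2:197500275-197500378, plus strand shown). This shared stretch is 74% G and C, and the windows of these starts held no heat shock element. It is printed because the AGO2-bound levels of these neighbours parted after miR-130a and miR-205, as described further on.
HSPD1 to HSPE1: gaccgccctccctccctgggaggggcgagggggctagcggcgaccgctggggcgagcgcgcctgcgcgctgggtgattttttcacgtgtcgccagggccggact

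Levels are deposited log2 values per probe set, with the array's floor at 2.34 to 2.35, and 1 unit is a 2-fold step. Levels of different probe sets are not comparable, so genes are compared only by their differences between groups. Each value is relative to the other transcripts on the same array, and in bulk RNA fewer expressing cells and less RNA per cell cannot be told apart. The lowest value was shared by the 6 miR-130a arrays (2.344895), the 6 miR-203 arrays (2.346843) and the 12 miR-205 and scramble arrays (2.347327), so the arrays appear to have been normalized in 3 sets. A change of miR-130a or miR-203 against scramble crosses these sets and cannot be told apart from an offset between them. A comparison of both kinds of RNA from the same transfection does not cross them. LNCaP is of luminal type, and 7 of the 8 luminal prostate markers measured were above 5 on all arrays, while the mean levels of the measured basal, leukocyte and endothelial markers lay between 2.34 and 2.46. Fibroblast markers had mean levels of 2.64 to 3.23. Total scramble replicate 1 had a GAPDH 3′ minus 5′ signal of 0.99, against 0.68 and 0.64 on the other 2 arrays of its group, and results that depend on it are given without it.

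Compared with total RNA, AGO2-bound RNA held less of most chaperone messages. After scramble 7 of the 9 genes were lower in AGO2-bound RNA and 0 higher, where the background over all genes tested was 37.8% lower and 35.1% higher. After miR-130a 7 were lower (background 38.3%) and 2 higher (33.3%), after miR-203 7 lower (37.2%) and 2 higher (34.7%), and after miR-205 6 lower (36.1%) and 2 higher (36.6%). Called means a Benjamini-Hochberg adjusted p under 0.05 in limma over the 6782 genes. Over the 36 pairs of gene and transfection, 27 were lower, 6 higher and 3 not called. The median difference of the 9 genes was -0.79, -0.87, -0.82 and -0.97 in the same order, beside -0.052, -0.084, -0.034 and -0.0088 over all genes. Because the genes were chosen with earlier results of these data known, these counts and medians are not an independent test. STIP1, HSP90AB1, HSPA4 and HSPE1 were lower in AGO2-bound RNA in all 4 transfections. The share of all genes lower in all 4 was not counted, so this has no background beside it.

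**Figure D1:**
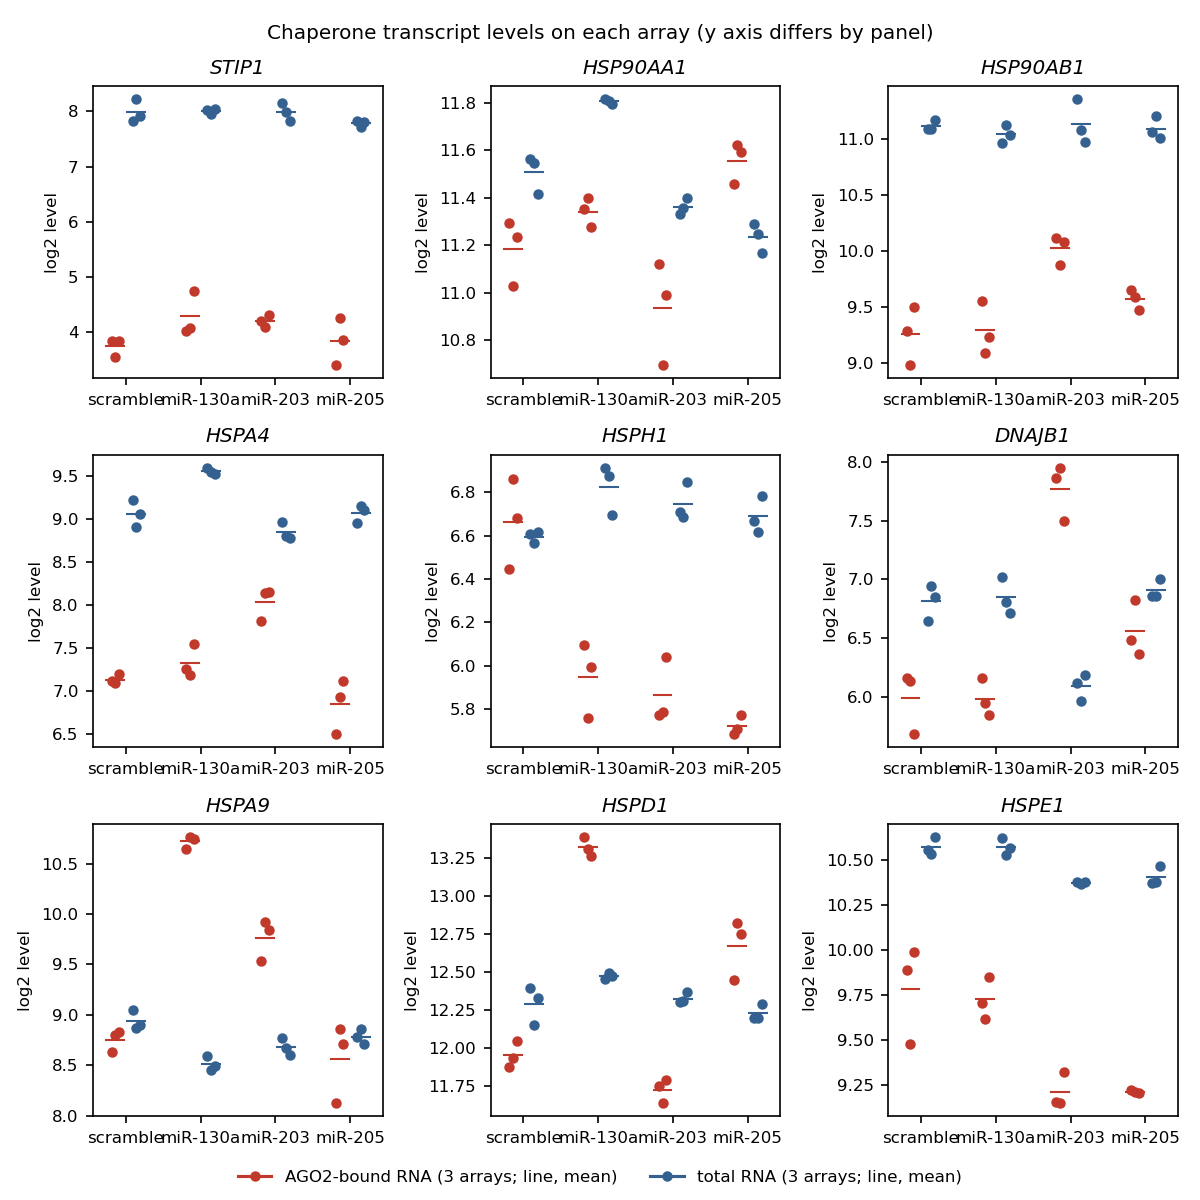
Log2 level (y axis, own scale in each panel) of 9 chaperone genes on all 24 arrays, by transfection (x axis); red points are AGO2-bound RNA and blue points total RNA, 3 arrays each, with a line at the mean. STIP1 lies between 3.40 and 4.75 on the AGO2-bound arrays and between 7.72 and 8.22 on the total RNA arrays, while HSPA9 after miR-130a and DNAJB1 after miR-203 stand above their total RNA.

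Signs of RNA quality moved with the kind of RNA, except for GAPDH after miR-203, and they also differed among the AGO2-bound groups. The 3′ minus 5′ signal of ACTB control probe sets ran from 2.22 to 3.94 on the 12 AGO2-bound arrays and from 2.00 to 2.44 on the 12 total RNA arrays (log2). For GAPDH it ran from 0.60 to 1.72 and from 0.63 to 0.99. The highest ACTB signal, 3.94, was that of AGO2 miR-205 replicate 1, against 3.20 and 3.21 on the other arrays of its group. By group, the AGO2-bound GAPDH difference was 1.40 ± 0.17 (SD, n = 3) with scramble, 1.25 ± 0.048 with miR-130a, 0.77 ± 0.15 with miR-203 and 1.55 ± 0.17 with miR-205, while total RNA lay at 0.70 to 0.80. The AGO2-bound ACTB difference was 3.40 with scramble, 2.55 with miR-130a, 2.68 with miR-203 and 3.45 with miR-205. AGO2-bound RNA after miR-130a and miR-203 therefore differed from scramble in these signs too. The part of this in the chaperone differences, between kinds of RNA or against scramble, was not tested.

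STIP1, the adaptor between HSP70 and HSP90, had the largest AGO2-bound deficit of the 9 genes in every transfection. In total RNA it measured 7.83, 8.22 and 7.91 on the scramble arrays. On the AGO2-bound scramble arrays it measured 3.83, 3.55 and 3.84. No array of one kind came near the other kind. AGO2-bound STIP1 measured 4.02, 4.08 and 4.75 on the miR-130a arrays, 4.20, 4.10 and 4.30 on the miR-203 arrays, and 3.40, 4.25 and 3.85 on the miR-205 arrays. Total RNA gave 8.02, 7.95 and 8.05, then 8.15, 7.99 and 7.83, then 7.83, 7.72 and 7.81 in the same transfections. The gap was therefore present with the control plasmid as with each microRNA. It was -4.25 ± 0.18 (SE) after scramble, a 19.0-fold lower level (adjusted p = 5.35e-16, limma). With the 3 microRNAs in order of their numbers it was 13.2-, 13.8- and 15.5-fold, with differences of -3.72, -3.79 and -3.95. Of the 6782 genes tested, 3, 3, 2 and 3 had a lower difference in the respective transfections. The second STIP1 probe set gave -4.17, -4.25, -4.20 and -4.37, with AGO2-bound means of 2.50 to 2.85, close to the floor, where differences are compressed.

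HSP90AA1 and HSP90AB1 encode the stress-inducible and the constitutive cytosolic HSP90, and their messages differed in how far AGO2-bound RNA fell short of total RNA. HSP90AB1 measured 11.09, 11.10 and 11.17 in total RNA after scramble and 9.29, 8.98 and 9.50 in AGO2-bound RNA. That is a difference of -1.86 ± 0.14, or 3.64-fold (adjusted p = 1.67e-11, limma). The groups did not overlap in any transfection, and the differences after miR-130a, miR-203 and miR-205 were -1.75, -1.12 and -1.53. On its brightest probe set HSP90AA1 lay closer to its total RNA. It measured 11.56, 11.55 and 11.42 in total RNA and 11.29, 11.03 and 11.23 in AGO2-bound RNA after scramble, a difference of -0.32 ± 0.11 (adjusted p = 0.0123). Without AGO2 scramble replicate 2, the lowest of these arrays, it was -0.25 (adjusted p = 0.0786). After miR-130a and miR-203 it was -0.46 and -0.43. This probe set had the smallest deficit of the 4 for HSP90AA1, and the others reached -1.25, -1.30 and -1.07 in the same 3 transfections, while the mean of 4 gave -0.67, -0.73 and -0.67.

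After miR-205 HSP90AA1 stood on the other side. It measured 11.46, 11.62 and 11.59 in AGO2-bound RNA and 11.29, 11.25 and 11.17 in total RNA, with no overlap and a difference of 0.32 ± 0.11 (adjusted p = 0.0127). This call depended on the probe set and the scaling: the second brightest probe set gave 0.087 (adjusted p = 0.581), the mean of 4 probe sets 0.036 (adjusted p = 0.761), and centring each array on its median 0.15 (adjusted p = 0.238). The gap between both paralogs, HSP90AA1 minus HSP90AB1 in their AGO2-bound minus total difference, was 1.54 with scramble, 1.29 with miR-130a, 0.69 with miR-203 and 1.85 with miR-205. These are the widest gaps that the probe sets of both genes give. Over all their pairs the gap went down to 0.56 with scramble, -0.037 with miR-130a, -0.26 with miR-203 and 0.94 with miR-205, so HSP90AA1 was the less depleted paralog on every probe set only after scramble and miR-205. The gap is a description without a test.

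HSPA4 and HSPH1 are both HSP110-type exchange factors for HSP70, and their messages behaved differently after scramble. HSPA4 measured 9.22, 8.91 and 9.06 in total RNA and 7.12, 7.09 and 7.19 in AGO2-bound RNA, a difference of -1.93 ± 0.14, or 3.80-fold (adjusted p = 1.28e-11, limma). Of its 3 other probe sets, a pair gave -2.68 and -2.13 and the dimmest -0.021. HSPH1 measured 6.61, 6.56 and 6.62 in total RNA and 6.45, 6.86 and 6.68 in AGO2-bound RNA. The HSPH1 groups overlapped, and its difference of 0.067 ± 0.12 was not called (adjusted p = 0.633). With a microRNA plasmid the AGO2-bound HSPH1 level was lower, at 6.10, 5.76 and 5.99 with miR-130a, 5.77, 5.79 and 6.04 with miR-203, and 5.68, 5.71 and 5.77 with miR-205. Every one of these 9 arrays lay below the 12 total RNA arrays, whose range was 6.56 to 6.91. The HSPH1 differences were -0.88 ± 0.12, -0.88 and -0.97, with a largest adjusted p of 6.34e-07. HSPA4 kept a deficit of -2.22 after both miR-130a and miR-205. After miR-203 it narrowed to -0.82 ± 0.14, with AGO2-bound arrays at 7.81, 8.14 and 8.16 and total RNA at 8.97, 8.80 and 8.78.

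DNAJB1, the J protein that hands clients to HSP70 and a classical heat shock gene, was lower in AGO2-bound RNA after scramble and miR-130a and higher after miR-203. It measured 6.65, 6.95 and 6.85 in total RNA and 6.16, 6.13 and 5.68 in AGO2-bound RNA after scramble, a difference of -0.83 ± 0.15 (adjusted p = 3.57e-05, limma). After miR-130a it was -0.87. The other DNAJB1 probe set gave larger deficits in both, -2.21 and -1.88. After miR-203 it measured 7.87, 7.95 and 7.50 in AGO2-bound RNA and 6.12, 5.96 and 6.19 in total RNA. These AGO2-bound arrays were the highest of all 24 and these total RNA arrays the lowest of the 12, which gave a difference of 1.68 ± 0.15, or 3.21-fold (adjusted p = 6.12e-10). The other probe set gave 0.51 (adjusted p = 0.00281). After miR-205 DNAJB1 measured 6.48, 6.83 and 6.36 in AGO2-bound RNA and 6.86, 6.86 and 7.00 in total RNA. The difference of -0.35 ± 0.15 was called (adjusted p = 0.0447), but with either of AGO2 replicates 1 and 3, or any of the 3 total RNA arrays, left out, the adjusted p ran from 0.0621 to 0.186. It was 0.0784 with no filter on low values and 0.115 with array weights. The other probe set gave a larger deficit there, -0.97 (adjusted p = 1.51e-06), and the mean of both -0.66 (adjusted p = 0.000125).

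HSPA9, the mitochondrial HSP70, went from close to its total RNA level with the control to far above it with miR-130a. After scramble it measured 8.63, 8.80 and 8.83 in AGO2-bound RNA and 9.05, 8.87 and 8.90 in total RNA. The arrays did not overlap, but the difference of -0.19 ± 0.14 was not called (adjusted p = 0.247, limma). It was called with each array centred on its median, at -0.32 (adjusted p = 0.0449), and at -1.21 with the second brightest probe set. After miR-130a HSPA9 measured 10.65, 10.76 and 10.75 in AGO2-bound RNA and 8.59, 8.45 and 8.49 in total RNA. This was the largest rise over total RNA among the 9 genes, 2.21 ± 0.14 or 4.62-fold (adjusted p = 1.79e-12). After miR-203 it measured 9.53, 9.92 and 9.85 in AGO2-bound RNA and 8.77, 8.67 and 8.60 in total RNA, a difference of 1.09 ± 0.14. Its 3 probe sets ran from 0.31 to 1.09 there, with 0.31 on the second brightest. After miR-205 the arrays overlapped, at 8.13, 8.86 and 8.71 against 8.78, 8.86 and 8.71, and the difference of -0.22 was not called (adjusted p = 0.18). It was called without AGO2 miR-205 replicate 2, at -0.36 (adjusted p = 0.0327), with median centring, at -0.39 (adjusted p = 0.0166), and with the second brightest probe set, at -1.08.

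The chaperonin pair of mitochondria parted after miR-130a and miR-205. HSPD1, the chamber subunit, measured 11.88, 11.94 and 12.05 in AGO2-bound RNA after scramble and 12.40, 12.15 and 12.33 in total RNA, a difference of -0.34 ± 0.11 (adjusted p = 0.00768, limma). The second HSPD1 probe set gave -1.45, and the mean of both -0.89. After miR-130a it measured 13.38, 13.31 and 13.26 against 12.46, 12.49 and 12.47. All 3 of these AGO2-bound arrays were above every other array, and the difference was 0.84 ± 0.11 (adjusted p = 2.23e-07), with 0.84 on the second probe set too. After miR-203 it was -0.60 ± 0.11, with -1.24 on the second probe set. After miR-205 it was 0.44 ± 0.11 (adjusted p = 0.000834), from 12.45, 12.82 and 12.75 against 12.20, 12.20 and 12.29, but the second HSPD1 probe set gave -0.080 there (adjusted p = 0.657) and the mean of both 0.18 (adjusted p = 0.111).

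HSPE1, the chaperonin lid, was lower in AGO2-bound RNA in all 4 transfections and read by 1 probe set. It measured 9.89, 9.48 and 9.99 after scramble, against 10.56, 10.53 and 10.63 in total RNA, a difference of -0.79 ± 0.12 (adjusted p = 1.43e-06, limma). After miR-130a, miR-203 and miR-205 the difference was -0.84, -1.17 and -1.19. HSPD1 minus HSPE1 in the AGO2-bound minus total difference was 0.45 with scramble, 1.69 with miR-130a, 0.57 with miR-203 and 1.63 with miR-205. With the second HSPD1 probe set it was -0.66, 1.68, -0.072 and 1.11, so its sign turned after scramble and miR-203. In total RNA, by contrast, the 12 arrays of HSPD1 spanned 12.15 to 12.49 and those of HSPE1 10.37 to 10.63, so neither neighbour of the shared start region moved far.

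**Figure D2:**
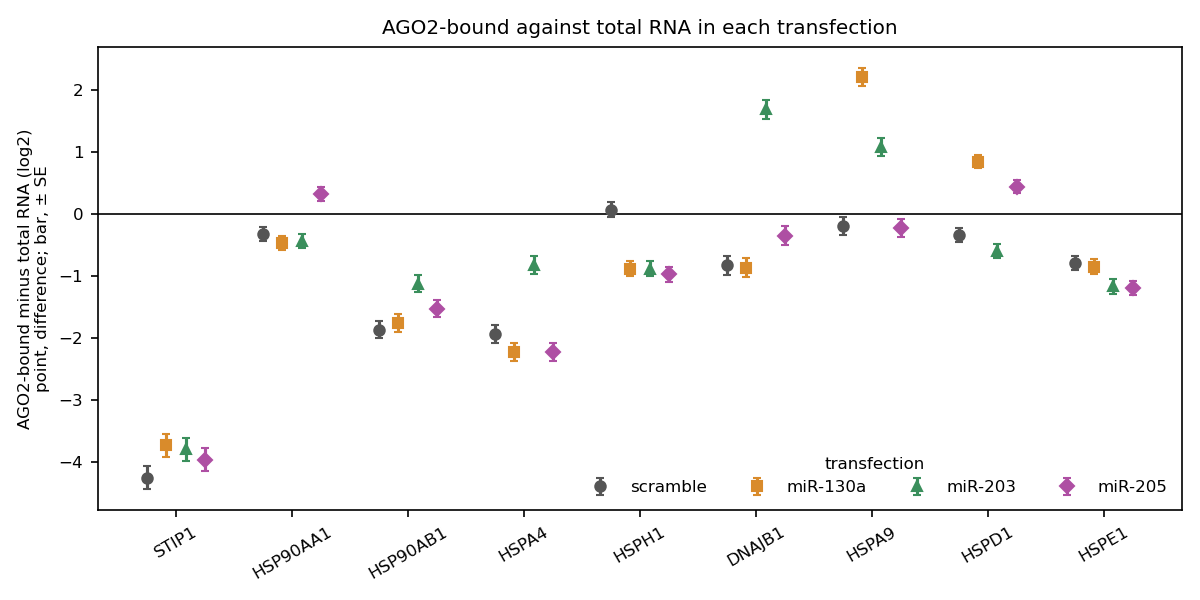
AGO2-bound minus total RNA (log2, y axis) for each gene (x axis) and transfection (symbols); points are limma differences over 3 against 3 arrays and bars ± SE. STIP1 lies between -4.25 and -3.72, and the points above 0 that were called are HSPA9 after miR-130a and miR-203, DNAJB1 after miR-203, HSPD1 after miR-130a and miR-205, and HSP90AA1 after miR-205.

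The order of the 8 group means separated the genes in the same way. For STIP1, HSP90AB1, HSPA4 and HSPE1 all 4 total RNA groups lay above all 4 AGO2-bound groups. The share of all genes with this order was not counted. The lowest total RNA group exceeded the highest AGO2-bound group by 3.50 for STIP1, 1.02 for HSP90AB1, 0.82 for HSPA4 and 0.59 for HSPE1. Within the total RNA groups of STIP1 and of HSP90AB1, neighbours in the order overlapped throughout. HSPA9 was led by AGO2-bound RNA after miR-130a (10.72 ± 0.061, SD, n = 3) and miR-203 (9.77 ± 0.21), each apart from the next group, and its last 5 groups overlapped in sequence between 8.51 and 8.78. DNAJB1 was led by AGO2-bound RNA after miR-203 (7.77 ± 0.24), 0.87 above the next group. HSP90AA1 and HSPH1 mixed both kinds of RNA in the upper groups.

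Other probe sets of the same genes measured other stretches of the same messages. Of 32 pairs of gene and transfection with several probe sets, 29 had AGO2-bound minus total differences of 1 sign. The same share over all genes with several probe sets was not counted. The exceptions were HSPA4 after miR-203 (-1.30 to 0.22), HSP90AA1 after miR-205 (-0.53 to 0.32) and HSPD1 after miR-205 (-0.080 to 0.44). The HSPA4 probe set at 0.22 was the dimmest, with a mean of 3.92 over all arrays. HSPA9 after miR-130a ran from 0.79 to 2.21 over 3 probe sets and DNAJB1 after miR-203 from 0.51 to 1.68 over 2, so their direction held and their size did not. HSPH1 was at 0.067 and 0.20 after scramble and at -0.88 and -1.24 after miR-130a on its 2 probe sets.

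**Figure D3:**
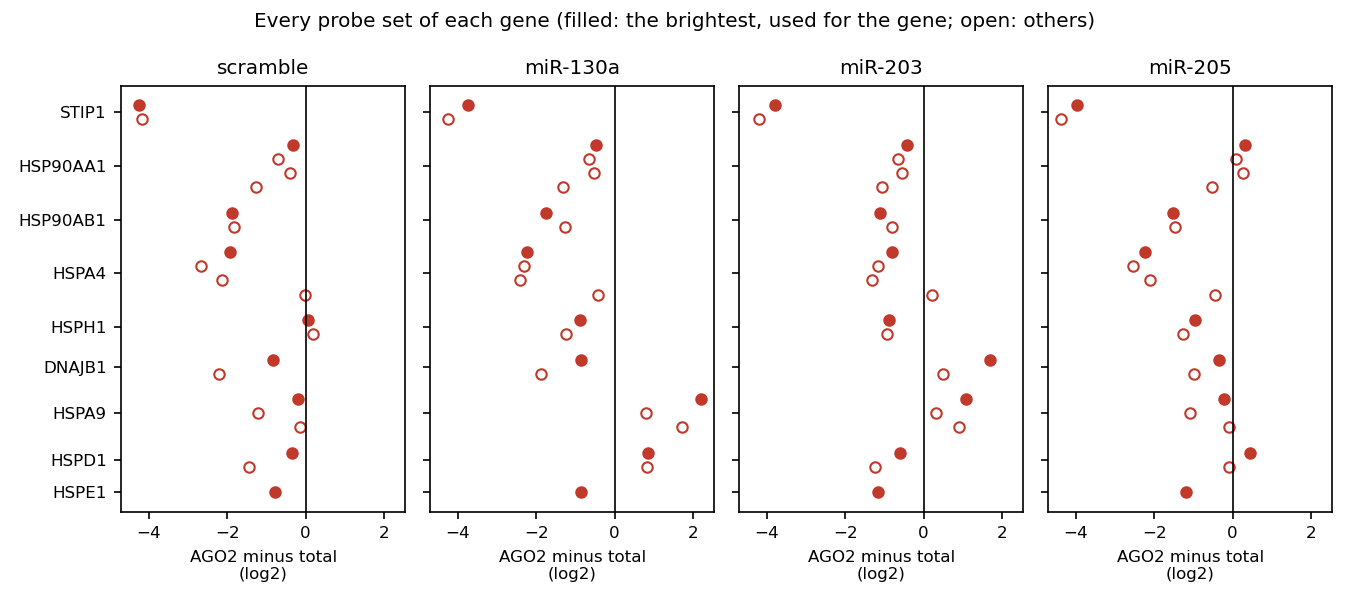
AGO2-bound minus total RNA (log2, x axis) for each of the 22 probe sets (rows, grouped by gene) in each transfection (panels); a filled point is the probe set used for the gene and an open point another probe set. In 29 of 32 pairs with several probe sets all points lie on 1 side of 0, and both STIP1 probe sets lie at -3.72 or lower throughout.

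Changes of these genes in total RNA lay between -0.73 and 0.49, and the share called was near or below that of all genes. After miR-130a 3 of 9 were called (background 29.3%): HSPA4 rose by 0.49 ± 0.096 (adjusted p = 0.0026, limma), HSP90AA1 rose by 0.30 ± 0.074 and HSPA9 fell by 0.43 ± 0.084. HSPA4 total RNA measured 9.59, 9.55 and 9.52 there, above every other array, but its second brightest probe set gave 0.13 (adjusted p = 0.397), and that of HSP90AA1 gave 0.17 (adjusted p = 0.12). After miR-203 3 of 9 were called (background 39.6%), all lower: DNAJB1 fell by 0.73 ± 0.11 (adjusted p = 0.000242), HSPA9 by 0.26 ± 0.084 (adjusted p = 0.0272) and HSPE1 by 0.20 ± 0.071 (adjusted p = 0.0429). The mean of all HSPA9 probe sets gave -0.075 (adjusted p = 0.414). Its second brightest probe set fell, from 8.85 to 8.15, and its dimmest rose, from 4.32 to 5.05. Without total scramble replicate 1 only DNAJB1 was called, with adjusted p of 0.086 for HSPA9 and 0.0585 for HSPE1. The same count of 1 came without total miR-203 replicate 2 or 3, and HSPE1 was not called with any 1 of the 6 arrays left out (adjusted p 0.0534 to 0.125).

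After miR-205 1 of 9 was called in total RNA (background 23.5%). HSP90AA1 fell by 0.27 ± 0.074 (adjusted p = 0.0178), from 11.56, 11.55 and 11.42 to 11.29, 11.25 and 11.17. Without total miR-205 replicate 3 the adjusted p was 0.0697, and without total scramble replicate 2 it was 0.051, so the count was then 0. STIP1, HSP90AB1, HSPD1 and HSPH1 were not called in total RNA with any of the 3 microRNAs on their brightest probe sets. HSPH1 after miR-130a was called with its second probe set (0.45, adjusted p = 0.00476), with the mean of both (0.34, adjusted p = 0.00478) and without total miR-130a replicate 3 (adjusted p = 0.0389). HSPD1 after miR-130a was called with the mean of both probe sets (0.18, adjusted p = 0.0309) and with an intensity trend (adjusted p = 0.0159), and STIP1 after miR-203 with its second probe set (0.38, adjusted p = 0.0442). STIP1 differed from scramble by 0.019, 0.0042 and -0.20, each with an SE of 0.11, and HSP90AB1 by -0.075, 0.022 and -0.023, each with an SE of 0.10.

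In AGO2-bound RNA a larger share of all genes was called against scramble than in total RNA, with each microRNA. After miR-130a 3 of the 9 chaperones were called (background 38.5%): HSPA9 rose by 1.97 ± 0.18 (adjusted p = 1.4e-06, limma), HSPD1 rose by 1.36 ± 0.13 and HSPH1 fell by 0.71 ± 0.15. STIP1 differed by 0.54 ± 0.22 (adjusted p = 0.0686), and with the replicate number as a block, by which these arrays pair, it was called (adjusted p = 0.0311). On their second probe sets HSPA4 (0.51, adjusted p = 0.00855), HSP90AB1 (0.52, adjusted p = 0.0309) and DNAJB1 (0.59, adjusted p = 0.0146) were called as well. After miR-203 6 of 9 were called (background 51.4%). DNAJB1 rose by 1.78 ± 0.18 (adjusted p = 2.72e-06), HSPA9 by 1.01 ± 0.18, HSPA4 by 0.90 ± 0.17 and HSP90AB1 by 0.77 ± 0.16, while HSPH1 fell by 0.80 ± 0.15 and HSPE1 by 0.57 ± 0.15. After miR-205 5 of 9 were called (background 44%). HSPD1 rose by 0.72 ± 0.13 (adjusted p = 0.000528), DNAJB1 by 0.57 ± 0.18 and HSP90AA1 by 0.37 ± 0.14, while HSPH1 fell by 0.94 ± 0.15 and HSPE1 by 0.57 ± 0.15. The HSP90AA1 call after miR-205 was lost without 5 of the 6 arrays in turn (adjusted p 0.0514 to 0.166, AGO2 miR-205 replicate 1 being the exception). That of DNAJB1 was lost without AGO2 miR-205 replicate 2 (0.102) or AGO2 scramble replicate 3 (0.0965), and either of these left 3 genes called. With no filter on low values the adjusted p of DNAJB1 was 0.0624.

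Whether the AGO2-bound change exceeded the total RNA change was tested by an interaction term, and 12 of 27 pairs of gene and microRNA were called. After miR-130a there were 3 (background 34.5%): HSPA9 (2.40 ± 0.20, adjusted p = 1.79e-09, limma), HSPD1 (1.18 ± 0.15) and HSPH1 (-0.94 ± 0.17). HSPA9 therefore measured higher than with scramble in AGO2-bound RNA and lower in total RNA, and 65 of the 6782 genes had a larger term. After miR-203 there were 5 (background 49.1%): DNAJB1 (2.51 ± 0.22, adjusted p = 1.07e-09), HSPA9 (1.27 ± 0.20), HSPA4 (1.11 ± 0.20), HSP90AB1 (0.74 ± 0.20) and HSPH1 (-0.95 ± 0.17). DNAJB1 likewise measured higher in AGO2-bound RNA and lower in total RNA, and 131 genes had a larger term. The terms after miR-130a and miR-203 cross the apparent normalization sets. An offset shared by both kinds of RNA cancels in them, and one that differs between the kinds does not. After miR-205 there were 4 (background 42.8%): HSPD1 (0.78 ± 0.15, adjusted p = 0.000222), HSP90AA1 (0.65 ± 0.16), HSPE1 (-0.40 ± 0.16, adjusted p = 0.0498) and HSPH1 (-1.03 ± 0.17). The HSPE1 call was lost without each of 11 of the 12 arrays in turn (adjusted p 0.0582 to 0.149), AGO2 scramble replicate 2 being the exception, and with quantile normalization (0.0918). DNAJB1 after miR-205 differed by 0.48 ± 0.22 (adjusted p = 0.079) on its brightest probe set. It was called at 1.23 on the second probe set (adjusted p = 2.38e-05), at 0.85 with the mean of both (adjusted p = 0.000808) and with array weights (adjusted p = 0.038).

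HSPH1 had a negative interaction term with all 3 microRNAs, but these share the scramble arrays, in which AGO2-bound HSPH1 measured 6.45, 6.86 and 6.68. HSPD1 after miR-130a and miR-205 and HSPA9 after miR-130a and miR-203 share the same control arrays as well. STIP1, with the widest gap between both kinds of RNA, had terms of 0.52, 0.46 and 0.29, each with an SE of 0.26, and none was called, though that after miR-130a was with array weights (adjusted p = 0.0405).

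**Figure D4:**
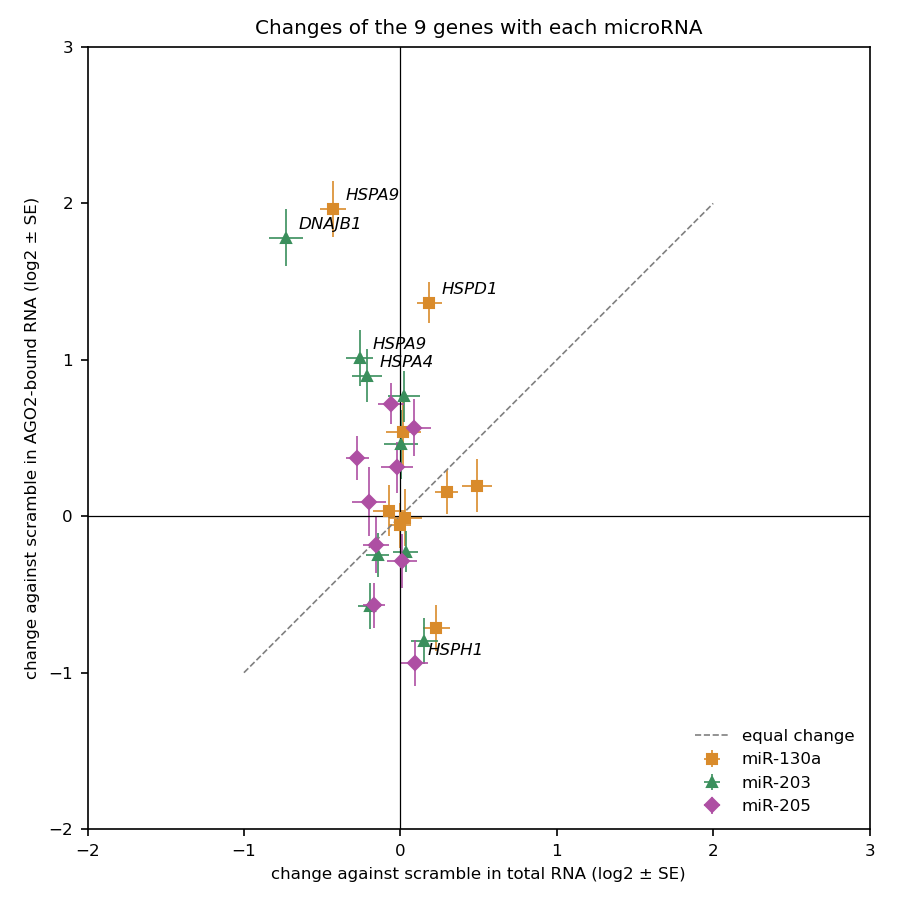
Change against scramble in total RNA (log2, x axis) and in AGO2-bound RNA (log2, y axis) for the 9 genes with each microRNA (symbols), with bars of ± SE; the dashed line marks equal change. HSPA9 after miR-130a (-0.43 and 1.97) and DNAJB1 after miR-203 (-0.73 and 1.78) lie at the upper left, and the total RNA changes stay between -0.73 and 0.49.

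Chaperone genes beyond these members were read from 8 lists of 75 genes, of which 65 had a probe set of their own and 55 were tested. After scramble 36 were lower in AGO2-bound RNA and 8 higher, with a median of -0.68. With the miR-130a plasmid 27 were lower and 10 higher (median -0.35), with miR-203 34 and 12 (-0.68), and with miR-205 25 and 15 (-0.22). The background of genes lower was 37.8%, 38.3%, 37.2% and 36.1%, as given above, and that of genes higher 35.1%, 33.3%, 34.7% and 36.6%. The counts of each list below are to be read beside these shares. The medians over all genes were those beside the members. The lists carry no test of their own, and they too were chosen with earlier results of these data known.

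The cochaperones of HSP90, to which STIP1 belongs by function, were lower at 9 of 12 genes after scramble and at 6, 10 and 6 with the microRNAs in order of their numbers. They were higher at 0, 2, 2 and 3 in the same order. FKBP4, an immunophilin of steroid receptor complexes, differed by -2.59 ± 0.18 after scramble and by -2.0, -2.10 and -1.92 with the microRNAs in order of their numbers. NUDC differed by -2.06 ± 0.15, then -1.86, -2.13 and -1.12. FKBP5, a related immunophilin, varied more, at -1.07 ± 0.12, then -2.52, -0.28 and -2.84. None of these reached the STIP1 difference. Cofactors of HSP70 were lower at 6, 6, 6 and 5 of 8 genes and higher at 2, 1, 1 and 2. STUB1, the ubiquitin ligase that acts on HSP70 clients, differed by -2.42 ± 0.15 after scramble, then -0.63, -2.88 and -0.48 in the same order. BAG5, an exchange factor, differed by -1.28 ± 0.16, -1.44 and -1.17, but by 1.98 after miR-205.

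J domain proteins related to DNAJB1 were mixed, with 5, 3, 5 and 2 of 10 genes lower and 3, 4, 2 and 5 higher. DNAJB4, of the same subfamily as DNAJB1, was higher in AGO2-bound RNA in all 4 transfections, by 2.35, 4.21, 2.31 and 3.79, each with an SE of 0.30. DNAJA1 differed by -1.20 ± 0.12 with scramble, then by 1.10, -0.44 and 0.65 with the microRNAs in order of their numbers. DNAJA2 differed by -0.48 ± 0.12, 0.25 (adjusted p = 0.0767, limma), -0.83 and 1.95 in the same order. The 4 other HSP70 family genes tested gave 1, 2, 2 and 1 lower and 1, 0, 1 and 1 higher. HSPA14, a ribosome-associated member, differed by 0.63 ± 0.17 with scramble, by -0.72 with miR-130a, by -1.52 with miR-203 and by -0.22, not called, with miR-205 (adjusted p = 0.227).

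TRiC is the cytosolic chaperonin that folds actin and tubulin. Its subunits were lower at all 7 tested genes after scramble and at 4, 3 and 5 after miR-130a, miR-203 and miR-205. They were higher at 0 after scramble and at 2, 2 and 1 with the microRNAs, and their median after miR-203 was 0.048. CCT7 differed by -1.98 ± 0.15 after scramble, then -2.01, -1.16 and -2.04. CCT6A differed by -0.68 ± 0.12 after scramble and -1.42 after miR-205, but by 1.37 after miR-130a and 1.14 after miR-203. These 2 subunits therefore lay on opposite sides of their total RNA after miR-130a and miR-203. Other mitochondrial chaperones and proteases were lower at 5, 4, 6 and 4 of 9 genes and higher at 2, 1, 3 and 3. TRAP1, the mitochondrial HSP90, was higher in AGO2-bound RNA after scramble by 2.09 ± 0.15 and lower after miR-203, at -0.95, while 0.044 after miR-130a (adjusted p = 0.814, limma) and 0.064 after miR-205 (adjusted p = 0.728) were not called. GRPEL1, the exchange factor of HSPA9, was higher in all 4 transfections, by 1.43 ± 0.13 with scramble, 1.89 with miR-130a, 2.26 with miR-203 and 1.11 with miR-205. LONP1, a protease of the matrix, differed by -2.05 ± 0.14 after scramble, then -1.56, -0.38 and -0.69.

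HSPB1, a small heat shock protein, differed by -1.86 ± 0.13 after scramble, -2.35 after miR-130a and -1.01 after miR-205, and by -0.26 after miR-203 (adjusted p = 0.0746, limma). HSPB8, of the same list, was higher by 0.40 ± 0.15 after miR-203 and not called in the other 3 transfections (-0.16 to 0.085). These were the 2 genes tested of that list. HSF1, the main heat shock factor, differed by -1.63 ± 0.16 after scramble, by -1.68 with miR-130a, by -0.69 with miR-203 and by -0.11, not called, with miR-205 (adjusted p = 0.547). No heat shock factor list member was higher in any transfection, with 2, 1, 2 and 1 of 3 lower. The backgrounds were 36.1% to 38.3% lower and 33.3% to 36.6% higher, and 3 genes are too few to set against them.

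Likeness of a pattern was measured as the root mean square difference between the 8 group means of a pair of genes, each centred on its own mean. Among the members HSPE1 and HSPH1 were closest (0.25), followed by HSPA4 and HSP90AB1 (0.32) and HSP90AA1 and HSPD1 (0.39). The distance is not scaled to how far a gene varies. A gene with no change over the groups would lie 0.25 from HSP90AA1, closer than HSPD1. For that last pair the distance therefore cannot show whether a pattern is shared. HSPD1 and HSPE1 were 0.69 apart, HSP90AA1 and HSP90AB1 0.77, and HSPA9 and STIP1 farthest, at 2.37. Over all genes tested, the closest to HSPH1 was MRPS14 (0.057), to HSPE1 EIF4H (0.073), to HSP90AB1 ATIC (0.090), to HSP90AA1 DNAJC17 (0.092), to DNAJB1 BCKDK (0.16), to HSPA4 HEBP2 (0.16), to HSPD1 SEC61A2 (0.16), to HSPA9 CHPT1 (0.26) and to STIP1 ZNF652 (0.32). STIP1 thus had the most distant nearest gene by this unscaled measure. It also had the largest root mean square spread around its own mean, 1.97, against 0.25 for HSP90AA1, so the distance does not rank how unusual a pattern is. The mean pattern of the 9 members was closest to KDM1A (0.084), PSMD6 (0.098) and NCBP1 (0.099).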

How the data were processed

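Each of 24 arrays gave deposited log2 values per probe set. They were made with R 2.9.0, per the submitters' processing notes, which also list the methods GCRMA and RMA without saying in which order. Because these methods subtract background and set a common distribution, dim transcripts are compressed towards the floor and every level is relative to its array. For arrays no read depth applies, and 3 arrays per group limit the precision. Of 22277 probe sets, 19064 had 1 gene symbol, 1043 several and 2108 none here, and 62 were controls. Each gene was read by its brightest probe set, and genes with a mean under 2.85 (the median of probe sets) were left out.

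Differences, SEs and adjusted p-values (Benjamini-Hochberg over 6782 genes, called under 0.05) came from lmFit and eBayes (limma 3.58.1, R 4.3.3). AGO2-bound against total RNA and the interaction terms used 24 arrays, and each microRNA against scramble the 12 arrays of 1 kind of RNA. The script was tested on simulated data with 200 changed genes, fewer than were called in the data. For AGO2-bound against total RNA after scramble it recovered 56.7% of 1.5-fold and 92.5% of 2-fold changes. For miR-205 against scramble, 62.7% of 1.5-fold changes were recovered in total RNA, 29.9% in AGO2-bound RNA and 20.9% in the interaction term. At 2-fold these were 94%, 86.6% and 62.7%. A result that was not called can therefore hide a change of such size. The members and lists were chosen with earlier results of these data known. All members are named, and of each other list the 2 genes with the smallest p in a comparison, some of which are given. Replicates are labelled biological with no separate cultures named, and the p-values reflect only how these arrays varied.

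The labels number the replicates 1 to 3 in each group. Among AGO2-bound arrays, those with the same number deviated together from their group means in the miR-130a comparison (r from 0.11 to 0.52) and in the miR-203 comparison (0.16 to 0.58), which pairs them by their values and not by a stated design. In the other comparisons the correlation was not over 0.1 in every pair. Alternatives changed the filter, probe set, scaling, prior, array weights, arrays in the fit, replicate block and each array in turn.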

Additional observations from a re-analysis of the deposited data

Results flagged for a closer look

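For 12 pairs of gene and microRNA the AGO2-bound minus total difference departed from that after scramble by a direct test of the departure (limma, adjusted p under 0.05 over all genes tested). After miR-130a these were HSPA9 at 2.40 (adjusted p = 1.79e-09), HSPD1 at 1.18 (1.39e-06) and HSPH1 at -0.94 (0.000108). After miR-203 they were DNAJB1 at 2.51 (1.07e-09), HSPA9 at 1.27 (1.48e-05), HSPA4 at 1.11 (6.25e-05), HSP90AB1 at 0.74 (0.00289) and HSPH1 at -0.95 (6.47e-05). After miR-205 they were HSPD1 at 0.78 (0.000222), HSP90AA1 at 0.65 (0.0019), HSPE1 at -0.40 (0.0498) and HSPH1 at -1.03 (2.69e-05). All are log2 values against the same scramble arrays. Those after miR-130a and miR-203 also cross the apparent normalization sets. Backgrounds of 34.5%, 49.1% and 42.8% of genes were called in these comparisons after miR-130a, miR-203 and miR-205. Apart from the array quality signals named above and leaving out each array in turn, groups of 3 arrays were not searched for single outlying arrays.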

How the results depend on the processing

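Each of the 9 settings other than leaving out an array kept the direction and the side of the threshold for 103 to 115 of 117 values (9 genes, 13 comparisons). A value that was not called and changed sign while still not called counts as kept. With an array left out, 822 of 864 values were kept, 35 lost their call, 7 gained one and 0 reversed. Counts of called genes then ran from 6 to 7, 9 to 9, 9 to 9 and 7 to 9 for AGO2-bound against total RNA after scramble, miR-130a, miR-203 and miR-205. For miR-130a, miR-203 and miR-205 against scramble they ran from 3 to 4, 1 to 3 and 0 to 1 in total RNA, 3 to 4, 6 to 6 and 3 to 5 in AGO2-bound RNA, and 3 to 3, 5 to 6 and 3 to 4 for the interaction terms.

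The count in total RNA after miR-130a was 5 with the mean of probe sets. After miR-203 it was 5 with an intensity trend and robust prior and 1 with all 24 arrays in the fit. After miR-205 it was 2 with no filter, with quantile normalization and with the trend, and 0 with the second brightest probe set and with all 24 arrays. In AGO2-bound RNA after miR-130a it was 6 with the second brightest probe set. With that probe set the difference of HSPD1 after miR-205 reversed to -0.080, and the AGO2-bound change of DNAJB1 after miR-130a went from -0.0090, not called, to 0.59. The cause was not tested.

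Centring each array on its median moved the median of all genes by -0.13 after scramble and -0.17 after miR-205 in AGO2-bound against total RNA. It also moved the share of higher calls over all genes in total RNA after miR-130a from 54.5% to 41.7%. With all 24 arrays in the fit, genes called in total RNA went from 1984 to 1202 after miR-130a and from 1591 to 980 after miR-205.

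With the replicate number as a block, 113 of 117 values kept their call. STIP1 in AGO2-bound RNA after miR-130a was called (adjusted p = 0.0311), HSPE1 in total RNA after miR-203 was not (0.0571), and the terms of HSPE1 after miR-203 (0.0336) and DNAJB1 after miR-205 (0.0271) were. The block changed no other call. Where the correlation did not pair the arrays, they share only a number. Dim probe sets near the floor limit how far a fall can be measured.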
